A study of Bos taurus with 20 samples.

Results

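M-phase promoting factor, the kinase CDK1 bound to a B-type cyclin, and the genes that switch it on and off were followed in the cells of the bovine ovarian follicle. The group held 10 genes, namely the kinase CDK1, the cyclins CCNB1 and CCNB2, the activating phosphatases CDC25A, CDC25B and CDC25C, the inhibiting kinases WEE1 and WEE2, and the kinases MOS and AURKA. They were found by the gene name printed on the array, without the numeric ending that marks a transcript. This rule found 9 of the 10 genes, and MOS was taken from the entry C-MOS, its older name. Together they were read by 28 of the 61325 gene spots, and they make up 10 of the 22550 genes measured.

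In the immature oocyte of an antral follicle meiosis is arrested at prophase. CDK1 and cyclin B are kept inactive there, because a WEE kinase phosphorylates CDK1 and anaphase-promoting complex activity removes cyclin B. Resumption of meiosis requires CDC25 phosphatases to take the inhibitory phosphates off CDK1. MOS, a kinase of the germ line, drives the MAPK cascade that later holds the egg at metaphase of the second division, and AURKA, the Aurora A kinase, acts in spindle assembly and in the activation of CDK1. WEE2, also called WEE1B, is the WEE kinase of oocytes, whereas WEE1 restrains CDK1 in dividing somatic cells, in which CDK1, the B cyclins and AURKA rise before mitosis.

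Gene expression was measured in total RNA of Bos taurus cells taken from antral follicles of ovaries collected after slaughter. The cells were theca (TH, scraped from the follicle wall), granulosa (GC), cumulus (CC) and the oocyte itself, all at the stage labelled immature, and CC detached after 4 h of in vitro maturation (IVM) of the cumulus-oocyte complex. Each group had 4 replicates and no group was genetically modified or drug treated. The age and breed of the animals and the number of follicles per sample were not given in the sources used here. From each sample 200 ng of RNA was labelled with Cy3 and hybridised to a custom bovine 60K array.

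Array quality and markers were as follows. The share of probes well above background was 59.1% to 61.8% in TH, 56.7% to 60.0% in GC, 58.9% to 62.8% in CC, 54.2% to 58.3% in CC after IVM and 49.3% to 68.8% in oocytes. The arrays of CC after IVM lay on a slide of their own, while replicates 1 and 2 of the other groups shared another slide and replicates 3 and 4 the remaining one, so slide and IVM cannot be told apart. The 6 oocyte markers (the growth factors GDF9 and BMP15, the zona proteins ZP2, ZP3 and ZP4, and NLRP5) had a summed level of 7.95 to 8.37 on the log2 scale in oocytes, against -2.64 to 1.59 on the arrays of the 4 other groups. All 6 were above background on each CC array as well. Of the 6, 4 to 5 were above background on TH arrays, with GDF9 on none. The range was 2 to 6 on GC arrays and 2 to 6 on arrays of CC after IVM. The 4 granulosa and cumulus markers (FSHR, CYP19A1, AMH and INHBA) summed to 1.14 to 1.60 in oocytes and to 8.57 to 8.62 in CC. Of these 4, 2 to 3 were above background on oocyte arrays, with CYP19A1 on none. The 5 theca markers summed to 9.17 to 9.70 in TH and to at most 6.84 in GC. Of these 5, 4 were above background on each CC array, 3 to 4 in CC after IVM and 3 to 4 in oocytes. CYP17A1 was above background on no array of CC, CC after IVM or oocytes. Of 4 listed markers of stimulated cumulus 2 were on the array. They summed to 2.11 to 2.84 in CC after IVM and to -1.35 to -0.19 in CC. HAS2, the hyaluronan synthase of the expanding cumulus, was at least 160-fold brighter in CC after IVM than in CC (limma, adjusted p = 3.3e-06). It was also above background on all 4 oocyte arrays, with a mean of -0.54 against 2.20 in CC after IVM.

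Each of the 10 genes was read by 2 different 60-base probes. The coordinates given below are those of the transcript in the array's own annotation (build UMD 3.1), and the place of a probe within the exons was not used here. The probes of WEE2 and MOS are shown because these genes differed most between oocytes and the other cells. WEE2 lies at chr4:105810983-105837062 and MOS at chr14:24975950-24976948, and no base is singled out in the sequences.
WEE2 probe 1: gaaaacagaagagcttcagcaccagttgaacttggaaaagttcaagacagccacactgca
WEE2 probe 2: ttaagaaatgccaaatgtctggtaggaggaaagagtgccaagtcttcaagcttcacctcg
MOS probe 1: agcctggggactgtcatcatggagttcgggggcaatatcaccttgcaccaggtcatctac
MOS probe 2: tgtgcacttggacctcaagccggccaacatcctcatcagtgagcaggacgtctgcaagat

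For CCNB2, at chr10:51247755-51272733, both probes are shown because they gave different sizes of the same difference, as described below.
CCNB2 probe 1: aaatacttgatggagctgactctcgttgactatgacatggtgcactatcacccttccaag
CCNB2 probe 2: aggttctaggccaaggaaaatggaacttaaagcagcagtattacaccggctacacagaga

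For CDK1, at chr28:16620266-16633922, the 2 probes overlapped over 59 bases with 1 difference, A17G, with probe 1 given first and positions counted from 1 at its 5′ end. Windows of 30 bases around the difference are shown with that base in capitals, since the 4 CDK1 spots are in effect repeats of 1 probe.
CDK1 probe 1: gtgttgtgtcaagaAcagataattgtactt
CDK1 probe 2: gtgttgtgtcaagaGcagataattgtactt

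The question of the main comparison was how far the oocyte differs from the somatic cells around it. All but WEE1 were higher in oocytes, and WEE1 was lower. Against the somatic mean, the average over TH, GC and CC, 9 of 10 genes were higher in oocytes, where 32.9% of all genes were called higher, and 1 of 10 was lower, where 38.3% were called lower (limma on 16 arrays, adjusted p under 0.05). The difference over the 10 genes had a median of 4.66 on the log2 scale, against -0.52 for all 22550 genes and 0.19 for those 10012 that all 16 arrays detected. Every one of the 9 higher genes had its 4 oocyte arrays above all 16 other arrays, which held for 21.9% of all genes, and WEE1 had its 4 oocyte arrays below all 16 others, which held for 18.2%. In such bulk samples, fewer cells of a type and less RNA per cell cannot be told apart.

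**Figure D1:**
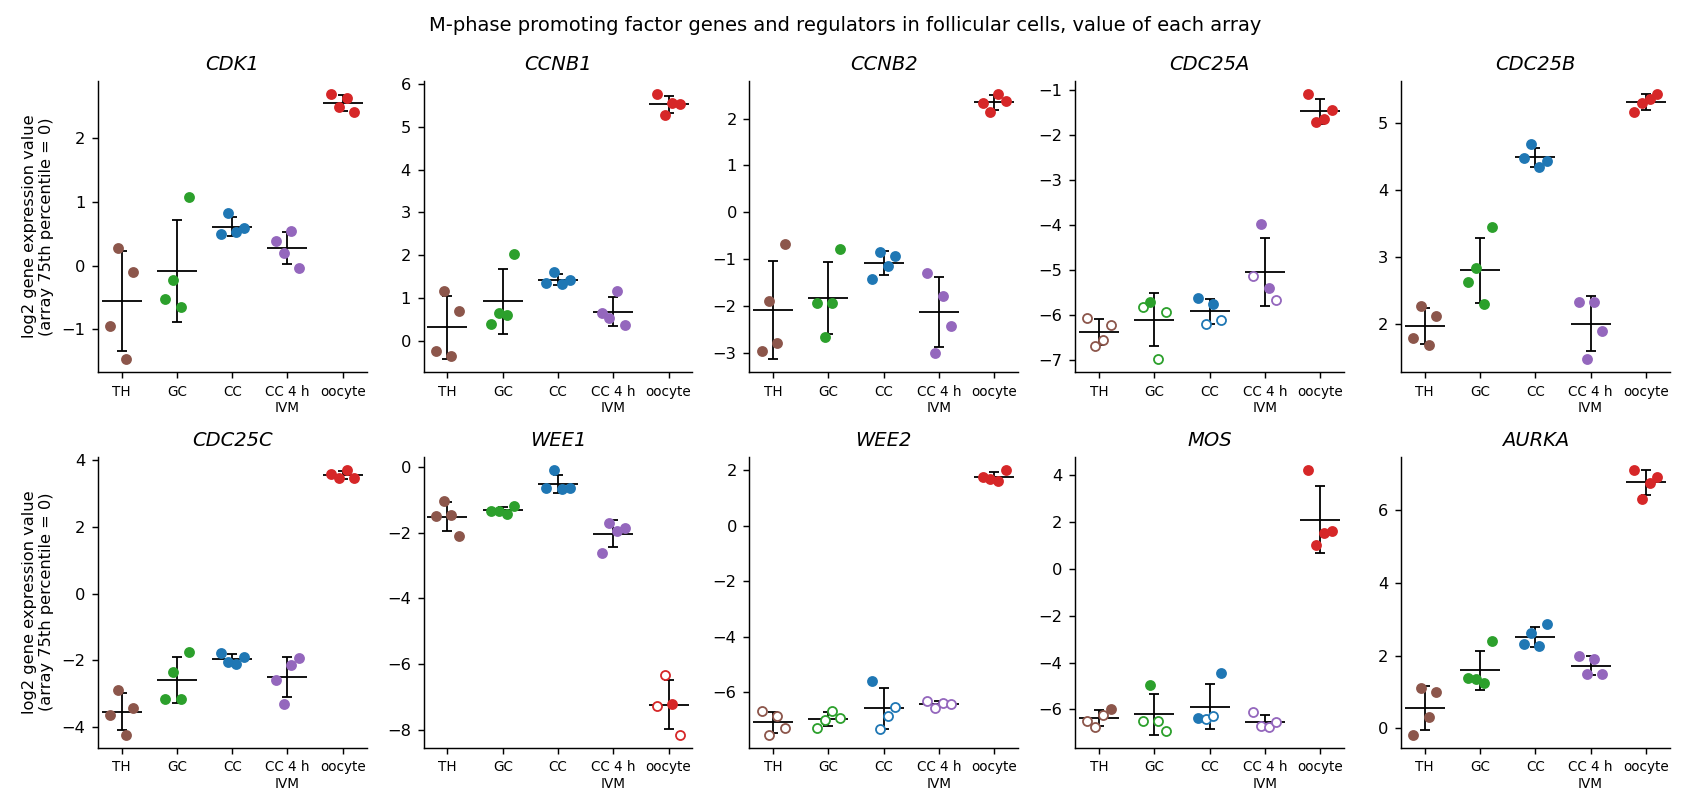
Log2 gene expression value of the 10 genes on each of the 20 arrays (vertical axis, relative to the array's 75th percentile) by group, with black bars for mean ± SD (n = 4) and open points for arrays on which no probe of the gene was well above background. The 4 oocyte points lie above all others in 9 panels and below all others in the WEE1 panel, where oocytes averaged -7.24.

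CDK1 is the catalytic kinase of the complex. On the log2 scale relative to the array's 75th percentile, its values in replicates 1 to 4 were 2.69, 2.49, 2.63 and 2.40 in oocytes. The TH values were -0.94, 0.27, -1.46 and -0.10, and the GC values were -0.53, -0.23, -0.65 and 1.08. In CC they were 0.50, 0.82, 0.52 and 0.59. CDK1 was thus detected in every cell type, and the lowest oocyte array stood above the highest somatic array, GC replicate 4. The oocyte mean exceeded the somatic mean by 2.56 (SE 0.31), a 5.90-fold difference (limma, adjusted p = 1.8e-06).

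Among the cyclins, CCNB1 (chr20:10431453-10441126) gave 5.76, 5.28, 5.55 and 5.53 in oocytes. Somatic values of CCNB1 ran from -0.36 in TH replicate 3 to 2.04 in GC replicate 4, so the groups were far apart. The difference was 4.65 (SE 0.29), or 25.1-fold (limma, adjusted p = 7.5e-10). CCNB2, the second B-type cyclin, gave 2.34, 2.15, 2.52 and 2.38 in oocytes. Its somatic values ran from -2.97 in TH replicate 1 to -0.68 in TH replicate 4. The oocyte values thus varied little among themselves, whereas TH varied widely, with a mean of -2.09 ± 1.05 (SD, n = 4). The difference for CCNB2 was 4.02 (SE 0.36), or 16.2-fold (limma, adjusted p = 5.1e-08). By probe, it reached 4.64 for CCNB2 probe 1 and 3.42 for probe 2, so the direction was shared and the size was not.

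The phosphatases remove the inhibitory phosphates from CDK1. CDC25C (chr7:51313474-51344138) separated the cell types most among the 3. Its oocyte values were 3.59, 3.46, 3.70 and 3.47, whereas somatic arrays ran from -4.23 in TH replicate 3 to -1.75 in GC replicate 4. The difference of 6.26 (SE 0.25) was 76.7-fold (limma, adjusted p = 3.2e-12), and it was 6.28 for probe 1 and 6.25 for probe 2.

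CDC25B (chr13:51853965-51863562) showed a different layout, with CC close to oocytes. Oocytes gave 5.17, 5.30, 5.37 and 5.43 and CC gave 4.48, 4.69, 4.34 and 4.44. GC values were 2.62, 2.84, 2.29 and 3.45, and TH values were 1.78, 2.26, 1.68 and 2.11. The groups did not overlap between oocytes and CC, nor between CC and the other somatic cells. Against the somatic mean CDC25B was higher by 2.24 (SE 0.18), or 4.71-fold (limma, adjusted p = 1.1e-08). Against CC alone it was higher by 0.83 (SE 0.22), or 1.78-fold (limma, adjusted p = 0.0031). That comparison gave 0.65 within slide 1 (limma, adjusted p = 0.093) and 1.01 within slide 2 (limma, adjusted p = 0.052), with 2 arrays a group.

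CDC25A (chr22:52242566-52264187) was dim outside oocytes. It gave -1.10, -1.72, -1.64 and -1.44 in oocytes, all 4 above background. In the other cells it was above background on 0 of 4 TH arrays, 1 of 4 GC arrays, 2 of 4 CC arrays and 2 of 4 arrays of CC after IVM. The measured difference was 4.67 (SE 0.22; limma, adjusted p = 1.7e-11), and as a bound oocytes were at least 14.1-fold brighter than TH, 11.8-fold than GC and 15.1-fold than CC. The bounds hold for the processing used here, and sizes depended on how background was treated. The difference from the somatic mean was 1.67 under a model-based correction (normexp) and 2.90 in the deposited values.

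The WEE kinases went opposite ways. WEE2 gave 1.75, 1.70, 1.62 and 2.01 in oocytes. It was above background on no array of TH, GC or CC after IVM and on 1 of 4 CC arrays, replicate 1, where it stood at -5.59 against -7.34 to -6.51 on the other CC arrays. That detection came from probe 2 alone (at -3.81), since probe 1 was above background on 0 CC arrays. WEE2 was thus bright in oocytes and near background elsewhere. Oocytes were at least 133-fold brighter than TH, 112-fold than GC, 142-fold than CC and 91.5-fold than CC after IVM. These bounds hold for the processing used here and are 6.5 to 7.1 on the log2 scale. Over the alternatives the log2 difference was as low as 5.14 against TH, 4.74 against GC, 4.96 against CC and 4.35 against CC after IVM. The measured difference from the somatic mean was 8.64 (SE 0.25; limma, adjusted p = 7.6e-14).

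WEE1 (chr15:43668580-43682433) gave -7.27, -6.33, -7.21 and -8.15 in oocytes, above background on 1 of the 4 arrays. Its TH values were -1.48, -1.03, -1.45 and -2.09 and its GC values were -1.34, -1.33, -1.43 and -1.18. In CC it reached -0.64, -0.09, -0.67 and -0.65, and it was above background on all 16 arrays outside oocytes. WEE1 was the only one of the 10 genes that was lower in oocytes. As a bound it was at least 20.9-fold dimmer in oocytes than in TH and 24.0-fold than in GC. Against CC the bound was 42.0-fold, and against CC after IVM 14.7-fold. These bounds hold for the processing used here and are 3.9 to 5.4 on the log2 scale. With the alternatives the log2 difference was as small as -3.49 against TH, -3.55 against GC, -4.34 against CC and -2.89 against CC after IVM. The measured difference was -6.13 (SE 0.25; limma, adjusted p = 4.5e-12).

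Taking WEE2 minus WEE1 on the same array cancels any scaling of that array. This within-array difference was 9.01 ± 0.88 (SD, n = 4) in oocytes, and it was -5.57 ± 0.62 in TH, -5.65 ± 0.30 in GC and -6.06 ± 0.95 in CC. It thus turned from negative to positive, by 14.77 on the log2 scale (two-sided exact permutation test, 4 oocyte against 12 somatic arrays, p = 0.0011, adjusted over 5 pairs p = 0.0014, where 0.0011 is the smallest p this design allows). With oocyte arrays above all others for WEE2 and below all others for WEE1, this p could take no other value and adds nothing to those results. Since 1 gene of the pair was near background on each side, the size is that of the signals and not of the transcripts. Among the phosphatases CDC25C changed more than CDC25B, by 4.02 (CDC25B minus CDC25C fell from 5.51 ± 0.31 in TH, 5.40 ± 0.28 in GC and 6.45 ± 0.21 in CC to 1.76 ± 0.17 in oocytes). The exact permutation p was again 0.0011. CDC25A minus CDC25B differed between oocytes and somatic cells by 2.43 and CDC25A minus CDC25C by -1.60 (exact permutation p = 0.0011 for each), but CDC25A was near background outside oocytes and with normexp background correction the former difference became -0.64. The rise of CCNB1 exceeded that of CCNB2 by 0.63 (exact permutation p = 0.0088), but with the brightest probe of each gene this difference was -0.094 and was lost.

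**Figure D2:**
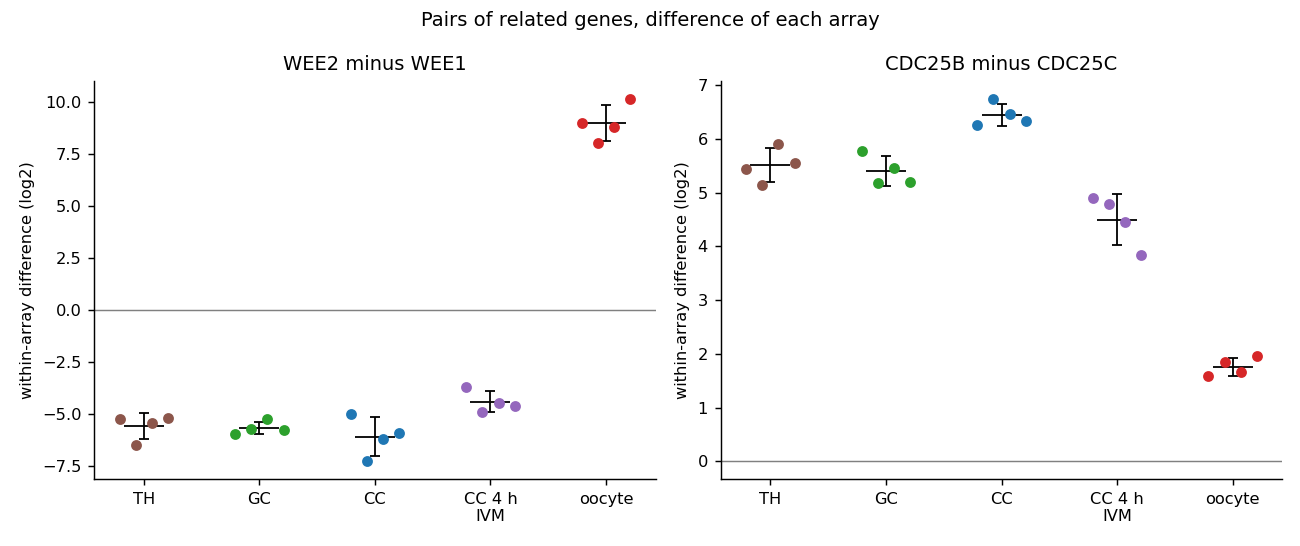
Within-array difference of 2 related genes on the log2 scale (vertical axis) on each of the 20 arrays by group, for WEE2 minus WEE1 and CDC25B minus CDC25C, with bars for mean ± SD (n = 4). WEE2 minus WEE1 averaged 9.01 in oocytes and was below 0 on the 16 other arrays, and CDC25B minus CDC25C averaged 1.76 in oocytes and 6.45 in CC.

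MOS is the germ-line kinase upstream of MAPK. It gave 4.23, 1.04, 1.55 and 1.62 in oocytes, so replicate 1 stood apart, and both MOS probes showed it (4.23 for probe 1 and 4.24 for probe 2 on the highest array). Outside oocytes MOS was above background on TH replicate 4 (-5.99), GC replicate 2 (-4.97) and CC replicates 1 and 4 (-6.37 and -4.43), and on no array of CC after IVM. The detection in TH came from MOS probe 1 alone and that in GC from probe 2 alone (at -2.78). In CC probe 1 was above background on 2 arrays and probe 2 on 1. Oocytes were at least 169-fold brighter than TH, 138-fold than GC, 158-fold than CC and 116-fold than CC after IVM. For the processing used here these bounds are 6.9 to 7.4 on the log2 scale. The alternatives gave log2 differences as low as 5.30 against TH, 4.94 against GC, 5.20 against CC and 4.73 against CC after IVM. The measured difference was 8.27 (SE 0.52; limma, adjusted p = 6.8e-10), and it was 7.56 without oocyte replicate 1.

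The CC arrays with WEE2 or MOS above background also had the most signal of the 6 oocyte markers. Their summed level was 0.41 in CC replicate 1 and 1.59 in CC replicate 4, against -0.12 and -0.83 in CC replicates 2 and 3. GC replicate 2, with MOS at -4.97, had the lowest marker sum among GC, -2.49. TH replicate 4, with MOS at -5.99, likewise had the lowest marker sum among TH, -1.45. The part of oocyte material in these values was not tested.

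AURKA (chr13:60092043-60107177) gave 7.10, 6.30, 6.74 and 6.93 in oocytes. In TH its values were -0.17, 1.11, 0.30 and 1.00, and in GC they were 1.39, 1.35, 1.24 and 2.40. CC gave 2.33, 2.62, 2.26 and 2.87. AURKA was thus present in all cell types, and the 4 oocyte arrays stood above all others. The oocyte mean exceeded the somatic mean by 5.21 (SE 0.26), or 37.0-fold (limma, adjusted p = 3.5e-11). The 2 AURKA probes gave 6.08 and 4.33.

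The oocyte was also set against each group in turn, comparisons that share the 4 oocyte arrays. The same split of 9 higher and 1 lower was found against TH (32.5% of all genes higher and 32.1% lower), GC (30.7% and 37.9%), CC (31.8% and 32.0%) and CC after IVM (30.4% and 49.8%). CC was the nearest group for CDK1, both cyclins, CDC25B, CDC25C and AURKA, with differences from oocytes of 1.94 for CDK1, 4.11 for CCNB1, 3.44 for CCNB2, 5.52 for CDC25C and 4.25 for AURKA. CDC25A, dim in all 4 groups, was at least 8.66-fold brighter in oocytes than in CC after IVM under the processing used here.

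**Figure D3:**
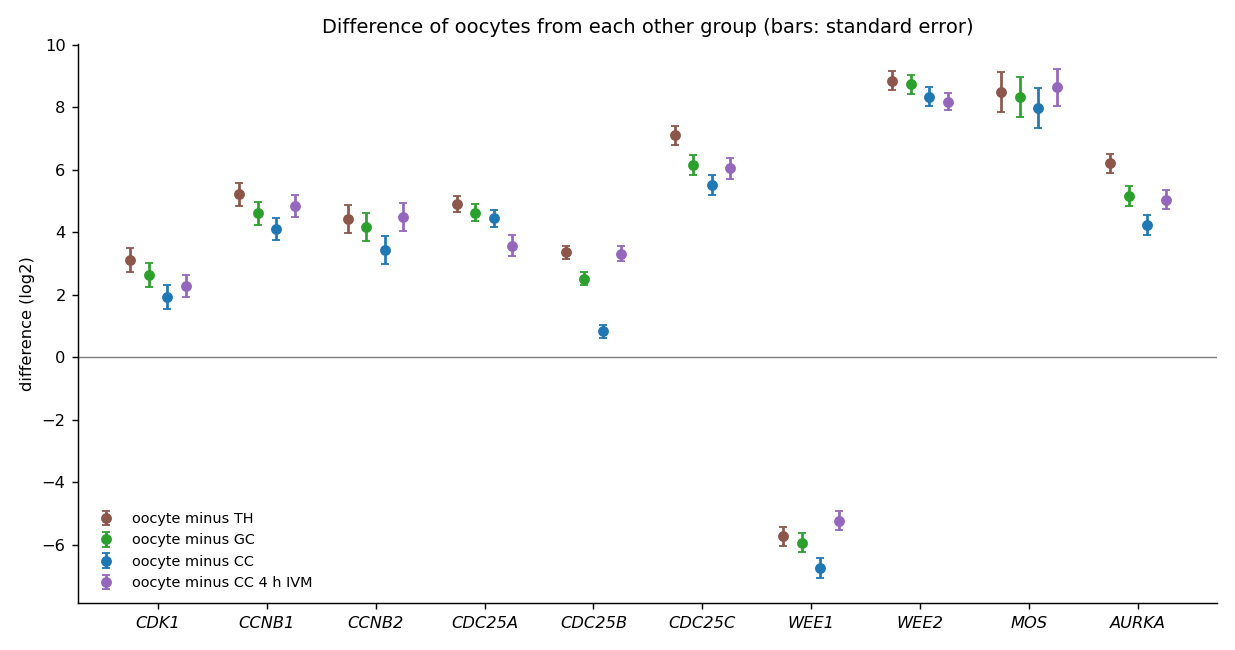
Difference of the oocyte mean from the mean of TH, GC, CC and CC after 4 h IVM on the log2 scale (vertical axis) for the 10 genes, with bars for the standard error of the limma fit. All differences lie above 0 except those of WEE1, and CDC25B lies nearest to 0 against CC (0.83).

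Beyond the 10 genes, 63 other genes of the pathway were listed in 8 branches, of which 61 were on the array by name. In oocytes 45 of the 61 were higher and 5 were lower than the somatic mean (32.9% and 38.3% of all genes).

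Partners and activators of the CDKs were higher without exception, in 10 of 10 genes with a median of 3.42. CKS1B, a small CDK-binding protein, was higher by 5.77 (SE 0.27; limma, adjusted p = 1.7e-11), and CCNB3, the third B-type cyclin, by 5.40 (SE 0.20; limma, adjusted p = 1.2e-12). Of 5 inhibitors and checkpoint kinases, 2 were higher and 2 lower. PKMYT1, the membrane-bound relative of WEE1, was higher by 2.35 (SE 0.19; limma, adjusted p = 1.2e-08), and CHEK1, which restrains CDC25, by 2.58 (SE 0.26; limma, adjusted p = 2.1e-07). The phosphatases CDC14A and CDC14B, which oppose CDK1, were lower by 3.50 and 1.03. The lower WEE1 was thus not shared by its relative PKMYT1, which oocyte arrays held at 3.79 ± 0.11 and CC at 2.06 ± 0.11 (SD, n = 4).

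Aurora partners and kin were higher in 4 of 5 genes (median 2.94). AURKC, the Aurora kinase of germ cells, was higher by 3.22 and BORA, a cofactor by which AURKA activates PLK1, by 3.18. In the Greatwall branch, whose kinase MASTL restrains the phosphatase PP2A while CDK1 is active, 5 of 6 genes were higher (median 1.35). MASTL was above background on all 4 oocyte arrays and on 1 of the 12 somatic arrays, a CC array, and was at least 13.5-fold brighter in oocytes than in TH, 11.3-fold than in GC and 14.1-fold than in CC. ENSA, the target of MASTL, was higher by 2.25.

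Downstream of MOS, 3 of 7 genes were higher and 2 lower (median 0.41). MAP2K1, the MAPK kinase that MOS phosphorylates, was higher by 2.50 and RPS6KA3, an RSK kinase, by 1.85. MAPK3 (ERK1) was lower by 1.37. These counts lie near the shares of all genes (32.9% higher and 38.3% lower), and the count of lower genes was 1 within slide 1 and with a filter on dim genes.

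For the machinery that destroys cyclin B and the genes that restrain it, 10 of 14 genes were higher and 1 was lower (median 1.87). Because this list mixes the 2 kinds, its count gives no direction for the destruction of cyclin B. FBXO43 and FBXO5, both inhibitors of the anaphase-promoting complex (EMI2 and EMI1), were higher by 7.76 (SE 0.21; limma, adjusted p = 4.5e-14) and 5.33 (SE 0.25; limma, adjusted p = 2.1e-11). FBXO43 was above background on 1 of 4 TH and 1 of 4 GC arrays, and oocytes were at least 123-fold brighter than TH and 103-fold than GC. CDC16, a subunit of that complex, was lower by 1.32. Transcription factors of G2/M genes were higher in 5 of 6 (median 1.47). E2F1 was above background on no TH array and on 2 of 4 GC arrays, and oocytes were at least 7.41-fold brighter than TH and 5.81-fold than GC. FOXM1 was above background on 0 of 4 TH and 1 of 4 GC arrays, with oocytes at least 3.02-fold brighter than TH and 2.51-fold than GC. The measured difference of FOXM1 from the somatic mean was 2.11, and it became -0.10 with normexp background correction (limma, adjusted p = 0.63). Dividing cell genes were higher in 6 of 8 (median 1.78). Of 2 genes of the spindle microtubules, NUSAP1 was higher by 4.14. PRC1, the other, was above background on 2 of 4 arrays in TH and in GC. For PRC1 oocytes were at least 28.4-fold brighter than TH and 24.1-fold than GC. The rule for dim groups did not apply in CC for FBXO43, E2F1, FOXM1 or PRC1, so no bound is given against CC.

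**Figure D4:**
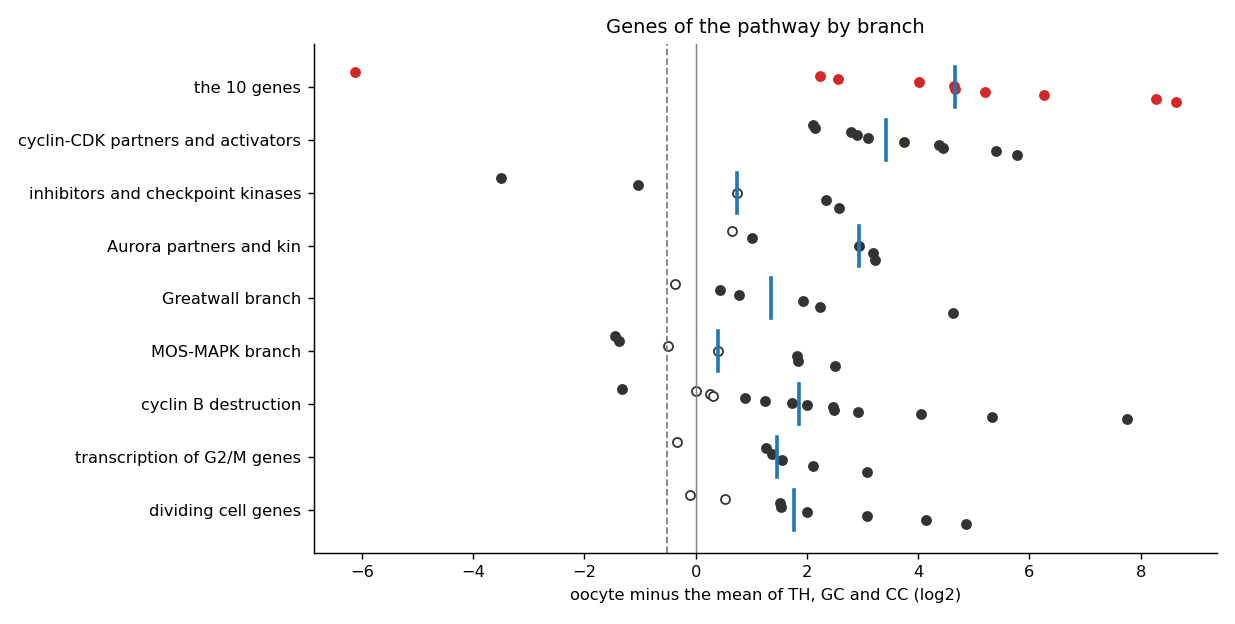
Difference of oocytes from the somatic mean (horizontal axis, log2) for the 10 genes (red) and the 61 listed genes by branch (dark points), filled where the limma adjusted p was under 0.05, with blue bars at each median and a dashed line at the median of all genes, -0.52. Of the 61 points 45 are filled and lie to the right of 0, and 5 are filled and lie to the left.

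CDC25A, WEE2 and MOS were near background in TH and GC and have no order there. For the 7 genes measured in all somatic layers the order of the means was TH, then GC, then CC, but most neighbours did not differ beyond their spread. By an F-test over the 3 groups, 4 of 10 genes differed (34.1% of all genes), and these were CDC25B, CDC25C, WEE1 and AURKA (limma, adjusted p = 7.8e-07, 0.0025, 0.041 and 0.00051). TH was below CC for 6 genes (17.4% of all genes lower and 14.4% higher), TH was below GC for 3 (14.5% and 11.8%), and GC was below CC for 1 (5.27% and 4.61%). None of the 10 was called in the other direction in these comparisons, nor was any at an unadjusted p under 0.05.

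CDC25B gave the steepest gradient, from 1.96 ± 0.27 in TH through 2.80 ± 0.49 in GC to 4.49 ± 0.15 in CC (SD, n = 4). It was lower in TH than in CC by 2.53 (limma, adjusted p = 2.5e-07) and in GC than in CC by 1.69 (limma, adjusted p = 0.00016). AURKA went from 0.56 ± 0.60 to 1.59 ± 0.54 and 2.52 ± 0.28, and CDC25C from -3.55 ± 0.55 to -2.60 ± 0.69 and -1.96 ± 0.15. WEE1 was -1.51 ± 0.44 in TH, -1.32 ± 0.10 in GC and -0.51 ± 0.28 in CC, so its somatic high point, like that of CDC25B, was in CC. CDK1 (-0.56 ± 0.79, -0.08 ± 0.80 and 0.61 ± 0.15) and CCNB1 (0.31 ± 0.73, 0.92 ± 0.76 and 1.42 ± 0.13) were lower in TH than in CC (limma, adjusted p = 0.028 and 0.027), with overlap in the spread of TH and GC. Each of these 2 calls was lost under 7 of 29 alternatives, with an adjusted p of 0.054 to 0.25, among them leaving out TH replicate 1, TH replicate 3, CC replicate 2 or CC replicate 4. The WEE1 call was lost under 5, among them without TH replicate 4 or CC replicate 2, and those of CDC25B and AURKA between TH and CC under 0. For CCNB2 no somatic pair differed, but without TH replicate 4 it was called lower in TH than in CC (-1.46; limma, adjusted p = 0.0060).

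The spread within TH and GC was shared between the cell-cycle genes. GC replicate 4 was the highest GC array for 7 of the 10 genes (CDK1, CCNB1, CCNB2, CDC25B, CDC25C, WEE1 and AURKA) and for 8 of 8 dividing cell genes. Their summed level was 3.88 there, against 2.40 to 2.61 on the other GC arrays. On that array the 4 granulosa and cumulus markers summed to 8.82, against 6.79 to 7.70 on the other GC arrays and 8.57 to 8.62 in CC, and whether these values are related was not tested. The theca markers summed to 6.84 and 6.65 in GC replicates 2 and 3, and to 4.90 and 5.09 in GC replicates 1 and 4. In CC they summed to 4.66 to 5.03. The part of theca material in the GC values was not tested. In TH the dividing cell sum was highest in replicate 2 (3.24), followed by replicate 4, against 2.19 and 1.96 in replicates 1 and 3, and replicates 2 and 4 were also the higher TH arrays for CDK1, CCNB1, CCNB2, CDC25C and AURKA. Without GC replicate 4, the TH and GC difference missed the threshold in AURKA (-0.77; limma, adjusted p = 0.073) or CDC25C (-0.66; limma, adjusted p = 0.10), while CDC25B passed (-0.62; limma, adjusted p = 0.021). The calls of AURKA and CDC25C were lost without TH replicate 1 or TH replicate 3 as well, and that of CDC25C without GC replicate 2. Same-numbered TH and GC arrays deviated together, and with the number as a block on these 8 arrays all 3 genes were called (limma, adjusted p = 0.024 for CDC25B, 0.040 for CDC25C and 0.036 for AURKA), whereas without the block CDC25C (adjusted p = 0.12) and AURKA (adjusted p = 0.070) were not.

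The remaining comparison asked what 4 h of IVM changes in CC. CDC25B and WEE1 fell most. In all, 5 of 10 genes were lower after IVM, where 15.5% of all genes were called lower, and 0 were higher, where 30.3% were called higher (limma on 8 arrays). At an unadjusted p under 0.05 the count of higher genes was 1, CDC25A. Of the 5 lower genes, CDC25B, WEE1, CCNB1 and AURKA had 4 arrays below all 4 CC arrays, which held for 14.9% of all genes, and none of the 10 genes had them above all CC arrays, which held for 29.1%. The all-gene median of this comparison was 0.37, and 0.01 after quantile normalization. The shares of all genes depended on this choice. After quantile normalization 2754 of the 22550 genes were called higher and 3623 lower.

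CDC25B after IVM stood at 2.32, 1.47, 2.32 and 1.89, against 4.34 to 4.69 in CC. It fell by 2.49 (SE 0.23), or 5.61-fold (limma, adjusted p = 5.3e-05), to 2.00 ± 0.41 beside 1.96 ± 0.27 in TH (SD, n = 4). WEE1 stood at -2.61, -1.69, -1.95 and -1.84, against -0.67 to -0.09 in CC. It fell by 1.51 (SE 0.25), or 2.85-fold (limma, adjusted p = 0.0015). The activator and the inhibitor of CDK1 thus fell together in these cells, and both were called lower under all 19 alternatives.

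AURKA went from 2.52 ± 0.28 to 1.72 ± 0.26, and fell by 0.80 (SE 0.22; limma, adjusted p = 0.018). CCNB1 gave 0.66, 0.54, 1.16 and 0.36 after IVM and fell by 0.74 (SE 0.21; limma, adjusted p = 0.022). CCNB2 gave -1.30, -3.01, -1.80 and -2.44, which overlapped with CC (-1.43 to -0.86), and fell by 1.04 (SE 0.35; limma, adjusted p = 0.035). The CCNB2 call was lost under 10 of 19 alternatives and the CCNB1 call under 4. CDK1 itself gave 0.39, 0.19, 0.54 and -0.04, a difference of -0.34 (SE 0.20; limma, adjusted p = 0.18). The differences of CDC25C (-0.54), CDC25A (0.87), MOS (-0.65) and WEE2 (0.15) did not pass the test either, and the last 3 were dim in CC.

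**Figure D5:**
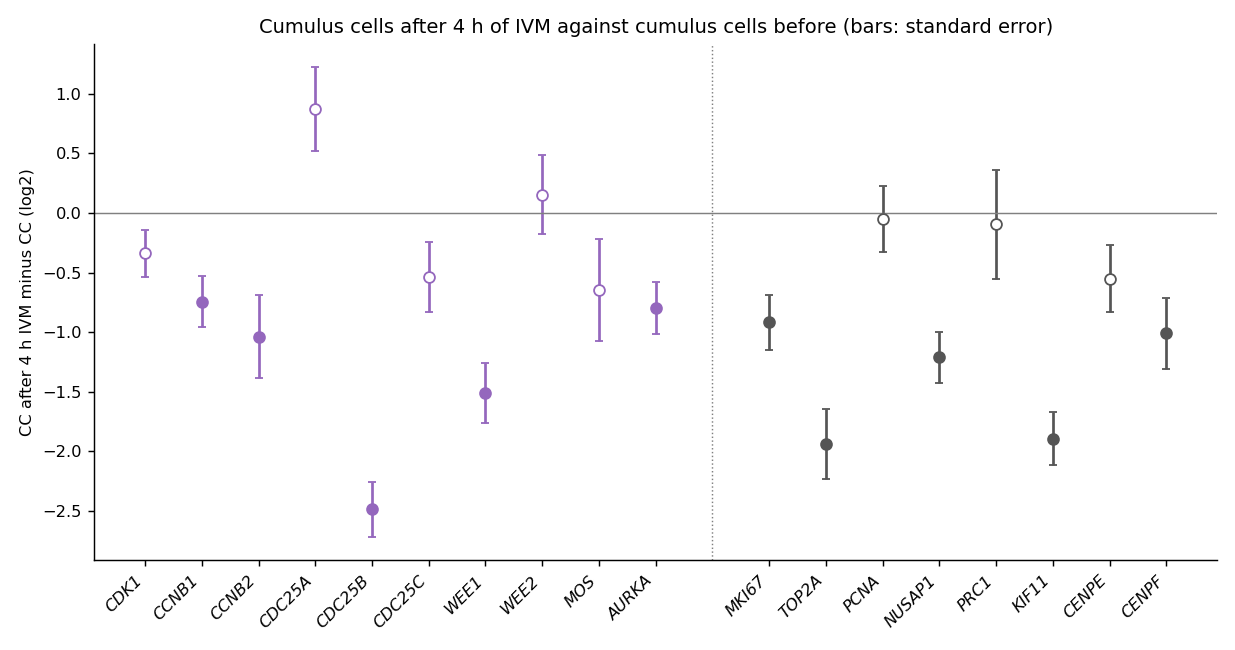
Difference of CC after 4 h IVM from CC on the log2 scale (vertical axis) for the 10 genes (purple, left) and 8 dividing cell genes (grey, right), with bars for the standard error and filled points where the limma adjusted p was under 0.05. CDC25B is lowest at -2.49, CDC25A is at 0.87 with an open point, and 5 of the 8 dividing cell genes are filled and below 0.

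In the same comparison 26 of the 61 listed pathway genes were lower after IVM and 11 were higher (15.5% and 30.3% of all genes). With normexp background correction the counts were 22 lower and 22 higher, where 13.1% of all genes were called lower and 65.5% higher. After quantile normalization they were 27 lower and 10 higher, where 3623 of all 22550 genes were called lower and 2754 higher. Of the dividing cell genes 5 of 8 were lower and 0 higher, and of the genes for cyclin B destruction and its restraint 8 of 14 were lower and 1 higher. Of the genes named above that all 8 arrays detected, CCNB3 fell by 2.41, PKMYT1 by 1.65, BORA by 1.29, NUSAP1 by 1.21, CHEK1 by 1.18 and FBXO5 by 1.10. In the Greatwall branch 4 of 6 were higher and 1 lower, and in the MAPK branch 3 of 7 were higher. MAP2K1 rose by 1.88 and ENSA by 1.45, and RPS6KA3 rose as well. The summed level of the dividing cell genes was 3.33 to 3.84 in CC and 1.80 to 2.69 after IVM, and that of the 6 oocyte markers was -0.83 to 1.59 in CC and -2.64 to -0.84 after IVM. The part of slide, of detection and of oocyte material in these differences was not tested.

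The genes with the pattern most like that of each member over the 20 arrays, WEE1 left out because it was near background in oocytes, are given as a description, since all of them mostly follow the step between oocytes and the other cells. Pearson's r was taken over 10734 genes above background in oocytes. CCNB1 was most like FBXO5 (0.995), SPC25 (0.993) and ESCO2 (0.992), and AURKA most like DEPDC1B (0.989), CENPV (0.988) and NUP88 (0.987). CDK1 was most like CKS2 (0.984), CDCA3 (0.981) and MIS18A (0.979), whereas CCNB2 was most like KIF18A (0.982), FAAP24 (0.979) and CCNA2 (0.979). For WEE2 they were DDX43 (0.996), C4orf17 (0.996) and HERC3 (0.994), and for MOS they were PABPN1L (0.988), CRH (0.986) and ZGLP1 (0.985). CDC25C was most like IDE (0.991), NDC1 (0.989) and WDPCP (0.987), and CDC25B, with its high CC level, had lower values with FAM114A2 (0.977), SLC22A5 (0.970) and XRCC3 (0.966). CDC25A was most like an endogenous retroviral entry of the array (0.982), SF3A3 (0.981) and CLP1 (0.981).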

How the data were processed

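RNA of 20 samples in 5 groups was hybridised to 1-colour Agilent arrays. The deposited scanner files hold spot intensities extracted with Agilent Feature Extraction 10.7.3.1, per the submitters' processing notes, and the authors also deposited a table of log2 values. Those log2 values equal the log2 median spot intensity minus the array's median, which was checked to within 5e-09, so they carry no background subtraction. The authors' normalization was not given in the sources used here.

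Here the background-subtracted processed intensity was taken as log2, the array's 75th percentile was subtracted, and the median over the spots of a gene was used. Control spots and outlier spots were left out. Of 61325 gene spots, 9779 carried no gene name on the array, and 734 of these were named through RefSeq accessions. Groups were compared with limma 3.58.1 in R 4.3.3, with Benjamini-Hochberg adjustment over 22550 genes and a threshold of 0.05, in a fit of 16 arrays (oocytes, TH, GC and CC), of 20 arrays (oocytes against CC after IVM) or of 8 arrays (CC after IVM against CC). The script was tested on simulated data. Precision is limited by 4 arrays per group, and because nothing states which animals a sample came from, p-values measure only the spread between these samples.

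A gene well above background on at most 2 of a group's 4 arrays had no mean level there. Its fold change is given as a lower bound against the dimmest signal called above background on each array. Such a bound holds for the processing used here, and some differences were smaller under the alternatives. All 10 members were named. Of the other pathway genes, each list's 2 largest rises and 2 largest falls were named where the 4 oocyte arrays lay outside the 12 somatic arrays, and for likeness the 3 genes with the highest correlation. The members and lists were chosen with earlier results of these data known. Alternatives covered normalization, background correction, the deposited values, probe summary, a filter on dim genes, samples in the fit, replicate number, slide, leaving out each array, and the methods' analysis of variance. Replicate numbers paired TH with GC. Their 4 same-numbered pairs had correlations of 0.20 to 0.44 in their deviations from the group means over 9536 genes. In no other pair of groups did more than 2 of 4 arrays fit their own number best. Same-numbered correlations were still 0.021 to 0.19 between GC and CC, and -0.030 to 0.34 between TH and CC.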

Additional observations from a re-analysis of the deposited data

Results flagged for a closer look

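In 4 of 50 sets of 4 arrays (10 genes in 5 groups), the highest array stood far from the other 3 by Dixon's test, and chance does so in about 1 of 20 sets. CCNB1 was at 2.04 in GC replicate 4, against 0.39 to 0.65 on the other GC arrays. AURKA was at 2.40 on the same array, against 1.24 to 1.39. WEE1 was at -0.087 in CC replicate 2, against -0.67 to -0.64 on the other CC arrays. MOS was at -4.43 in CC replicate 4, against -6.43 to -6.30, with 2 of the 4 CC arrays above background.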

How the results depend on the processing

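The 300 values of the 10 genes under alternatives for oocytes against the somatic mean kept their direction and their side of the threshold, as did the 9 higher and 1 lower gene in each comparison with oocytes, except that CDC25B against CC missed the threshold within either slide, leaving 8 higher genes. Sizes near background did not: over these alternatives the difference ran from 1.67 to 5.03 for CDC25A, from 4.95 to 9.33 for WEE2, from 5.15 to 8.89 for MOS and from -6.43 to -3.83 for WEE1, with the smaller sizes under normexp, which adds an offset, and in the deposited values, which hold no background subtraction. For CC after IVM, the count of lower genes was 3 in a fit of all 20 arrays, 2 with the replicate number as a block and 3 to 5 when leaving out an array (3 without CC replicate 2 and 3 without CC replicate 4 after IVM). The count of higher genes was 3 with normexp, 1 in the deposited values, 1 in the fit of 20 arrays, 1 with slide as a random block (added after seeing the data) and 0 to 1 when leaving out an array. With normexp the differences turned for MOS to 0.47, FBXO43 to 0.40, E2F1 to 0.53, FOXM1 to 0.51, MASTL to 0.48 and PRC1 to 0.56. These genes were all dim in CC after IVM. In the deposited values the difference turned for MASTL to 0.10. The oocyte difference of FOXM1 became -0.10 with normexp. Under the replicate block the calls of CCNB1, CCNB2 and AURKA in this comparison were lost. The numbers paired TH with GC, where 4 of 4 arrays fitted their own number best. In the joint fit of oocytes, TH, GC and CC, the block changed none of the 3 calls between TH and GC. On the TH and GC arrays alone, CDC25C and AURKA were called with the block (limma, adjusted p = 0.040 and 0.036). Without the block these 2 genes were not called there (limma, adjusted p = 0.12 and 0.070). In the 9 other pairs of groups the lowest correlation of same-numbered arrays was -0.26 to 0.021. Over TH, GC and CC, 1 gene differed within slide 1 and 1 within slide 2, where 2 arrays a group remained, and 3 to 6 when leaving out an array. For pairs, CCNB1 against CCNB2 became -0.094 with the brightest probe, and CDC25A against CDC25B became -0.64 with normexp and 0.046 in the deposited values, from 2.43. Within slide 1 and slide 2 no pair could pass with 2 against 6 arrays, at 14.44 and 15.10 for WEE2 against WEE1, 0.50 and 0.76 for CCNB1 against CCNB2, 2.49 and 2.37 for CDC25A against CDC25B, -1.55 and -1.64 for CDC25A against CDC25C, and -4.04 and -4.01 for CDC25B against CDC25C. Apart from the stated constructions, the cause was not tested.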
